A study of Mus musculus with 21 samples.

Results

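The genes described here are the transcription factor families that lay out the embryo: the forkhead (Fox), Sox, T-box (Tbx), paired-box (Pax), LIM homeobox (Lhx), Dlx, Nkx, Iroquois (Irx) and Gata genes, Six5 and related genes, and Sim1, Sim2, Gsc, Twist1 and Twist2. A symbol matched if it began with a family name and a digit. Fox needed a letter from a to s before the digit, and Nkx needed no digit. Sim1, Sim2, Gsc, Twist1 and Twist2 were matched as whole symbols. Members were every matching row of the deposited mouse liver expression table, whatever its level. They came to 143 of 22520 rows, of which 135 are factor genes and 8 are noncoding or antisense rows such as Foxl2os. Livers of 4 genotypes were profiled by RNA-seq, and each genotype was sampled in 3 conditions, at 2 months of age, at 8 months, and at 3 months after injection of CCl4 (carbon tetrachloride, a toxin that hepatocytes activate). The WT mice carried floxed Ezh2 alleles (Ezh2 fl/fl) and no Cre. E1KO mice were Ezh1-/-, a loss in every cell. E2KO mice were Ezh2 fl/fl with Alb-Cre, a recombinase driven by the albumin promoter and hence active in cells of the hepatocyte lineage, so that other liver cells keep Ezh2. DKO mice combined Ezh1-/- with Ezh2 fl/fl and Alb-Cre. All groups shared the mixed 129SV::FVB/N::C57BL/6 background. The labels do not state the dose or schedule of CCl4, and no untreated group of the same age stands beside the treated one.

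Each group has 1 deposited value per gene, in FPKM (fragments per kilobase of gene model, scaled by library size), although titles of the samples mention 3 replicates for a group (2 for the older mice). No spread between animals can therefore be given. Ezh1 stood at 1.96 to 2.50 FPKM in the WT and E2KO columns, and at 0.06 to 0.27 in the Ezh1-null columns except that of E1KO at 8 months, where it was 0.88. That E1KO column at 8 months also stood apart in skeletal muscle genes, whose 10 listed markers summed to 362.5 FPKM against 1.25 to 1.92 in the other 11 columns. Ezh2 in whole liver was 0.91 to 1.11 FPKM in untreated WT and 0.74 to 1.27 in untreated E2KO and DKO, where cells without Cre also contribute. With CCl4 it was 5.68 in WT, 3.92 in E2KO and 2.51 in DKO. The 9 listed hepatocyte markers in the table summed to 12441 to 22217 FPKM per column. In whole tissue, fewer cells of a type and less RNA per cell cannot be told apart.

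PRC2, a Polycomb complex whose methyltransferase is either EZH1 or EZH2, places methyl groups on lysine 27 of histone H3 (H3K27me3) and keeps developmental regulators silent in cells that do not use them. CpG-rich promoters of factors of these families are textbook targets of the complex. A few members have the opposite status in liver: FOXA1, FOXA2 and FOXA3 open chromatin at hepatocyte genes, GATA4 takes part in liver specification and in sinusoidal endothelium, and TBX3 acts in the growth of the liver bud.

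Promoters of 4 members are shown, from 250 bases before to 50 after the annotated start, because they carry the main contrasts below: Foxc1 and Gsc, silent in WT and higher in DKO, Lhx8, with the same pattern and a promoter of few CG pairs, and Foxa1, on in WT and lower in DKO. Sequences are from RefSeq on GRCm38.p6, 5′ to 3′ on the gene's strand, and capitals mark each CG dinucleotide, which reads the same on both strands. The windows are chr13:31806396-31806695 on the plus strand for Foxc1, chr12:104473187-104473486 on the minus strand for Gsc, chr3:154330511-154330810 on the minus strand for Lhx8, and chr12:57546062-57546361 on the minus strand for Foxa1.
Foxc1: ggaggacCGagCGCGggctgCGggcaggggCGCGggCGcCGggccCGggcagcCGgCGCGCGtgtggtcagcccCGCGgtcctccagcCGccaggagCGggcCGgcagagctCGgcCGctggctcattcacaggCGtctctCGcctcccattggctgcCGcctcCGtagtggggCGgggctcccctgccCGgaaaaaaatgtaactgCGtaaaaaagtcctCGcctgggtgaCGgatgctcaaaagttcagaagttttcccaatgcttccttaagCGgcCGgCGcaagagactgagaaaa
Gsc: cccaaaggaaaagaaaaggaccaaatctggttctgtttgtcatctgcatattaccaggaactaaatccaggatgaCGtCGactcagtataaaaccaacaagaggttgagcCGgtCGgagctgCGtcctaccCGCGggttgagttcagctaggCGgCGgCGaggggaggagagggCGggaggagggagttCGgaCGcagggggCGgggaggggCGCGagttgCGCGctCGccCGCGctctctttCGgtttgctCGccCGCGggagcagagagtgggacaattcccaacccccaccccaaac
Lhx8: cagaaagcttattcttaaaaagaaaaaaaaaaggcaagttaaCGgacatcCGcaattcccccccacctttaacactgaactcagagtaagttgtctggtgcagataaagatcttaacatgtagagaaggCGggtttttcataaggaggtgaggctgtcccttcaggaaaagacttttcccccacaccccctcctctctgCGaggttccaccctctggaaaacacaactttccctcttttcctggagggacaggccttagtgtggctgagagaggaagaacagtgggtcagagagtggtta
Foxa1: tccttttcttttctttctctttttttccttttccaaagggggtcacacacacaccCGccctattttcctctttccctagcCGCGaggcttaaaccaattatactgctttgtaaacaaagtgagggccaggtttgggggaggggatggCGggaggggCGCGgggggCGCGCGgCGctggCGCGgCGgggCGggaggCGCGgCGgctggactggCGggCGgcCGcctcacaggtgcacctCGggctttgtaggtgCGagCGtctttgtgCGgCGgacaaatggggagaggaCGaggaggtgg
The Foxc1 window held 32 CG pairs, a number reached by 12.9% of the 15142 promoters of genes in the table. The Gsc window held 25, reached by 25.8%, and the Foxa1 window held 26, reached by 23.5%. The Lhx8 window held 4, reached by 77.2%. Windows were found for 98 members and for 68.1% of the factor genes, under the 80% needed, so a comparison of CG content between the classes of members is void. Over the 24 matched members that were silent in WT and reached 0.1 FPKM in DKO, the windows held 4 to 38 CG pairs.

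A member was called silent where it was under 0.1 FPKM in all 3 WT columns, on where it reached 1 FPKM in at least 1 of them, and low otherwise. Of the 143 members, 95 (66.4%) were silent in WT, against 36.7% of all genes in the table. Another 30 (21.0%) were on, against 49.2% of all genes, and 18 were low. All 8 noncoding or antisense rows were silent. Among silent members, 38 were listed at 0 in every WT column, and 59 stayed under 0.1 FPKM in all 12 columns. Near the bounds, the highest WT value was 0.09 FPKM for the silent Foxc2 and Gata5 and 0.15 for the low Nkx2-1, while the on members Six5 and Nkx6-2 peaked at 1.07 and 1.04 FPKM and the low members Tbx2 and Irx1 at 0.80 and 0.74.

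In DKO liver, factors of the brain, heart, gonad, limb and muscle that were under 0.1 FPKM in WT liver were read at low levels. Sim2, Gsc, Tbx15, Nkx2-5, Foxc1, Irx5, Pax6, Sox2 and Pax3 each reached 1 FPKM in at least 1 DKO column from under 0.1 in every WT column. The 95 silent rows together summed to 0.74, 0.86 and 0.99 FPKM in WT (at 2 months, at 8 months, and with CCl4, in that order), and to 8.26, 11.22 and 25.55 FPKM in DKO. In E2KO they summed to 0.83, 0.81 and 1.11 FPKM, and in E1KO to 1.24, 2.97 and 1.12. The levels were small beside those of the liver's own factors, since the 30 members on in WT summed to 102.8 to 139.2 FPKM per column.

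Since silent members were chosen for a low WT value, a higher value elsewhere is fixed in direction, and their counts are read beside the same count over the 8269 genes silent in WT. At 0.1 FPKM, the DKO columns held 24 silent members at 2 months, where 3.23% of all silent genes got there, 24 at 8 months (6.14% of genes) and 28 with CCl4 (5.74% of genes). These counts are 25.3%, 25.3% and 29.5% of the 95. In any DKO column 35 got there (36.8%, against 9.71% of genes), and 16 in all 3 DKO columns (16.8%, against 1.6%). The E1KO columns held 2, 4 and 2 (1.05%, 3.31% and 2.89% of genes), and the E2KO columns 1, 1 and 1 (0.689%, 0.955% and 1.69% of genes). At 1 FPKM, DKO held 1 member at 2 months (0.411% of genes), 2 at 8 months (0.472%), 10 with CCl4 (0.677%) and 10 in any column (1.22%). No silent member reached 1 FPKM in E1KO, where 1.09% of silent genes did so in some column, or in E2KO, where 0.46% did.

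**Figure D1:**
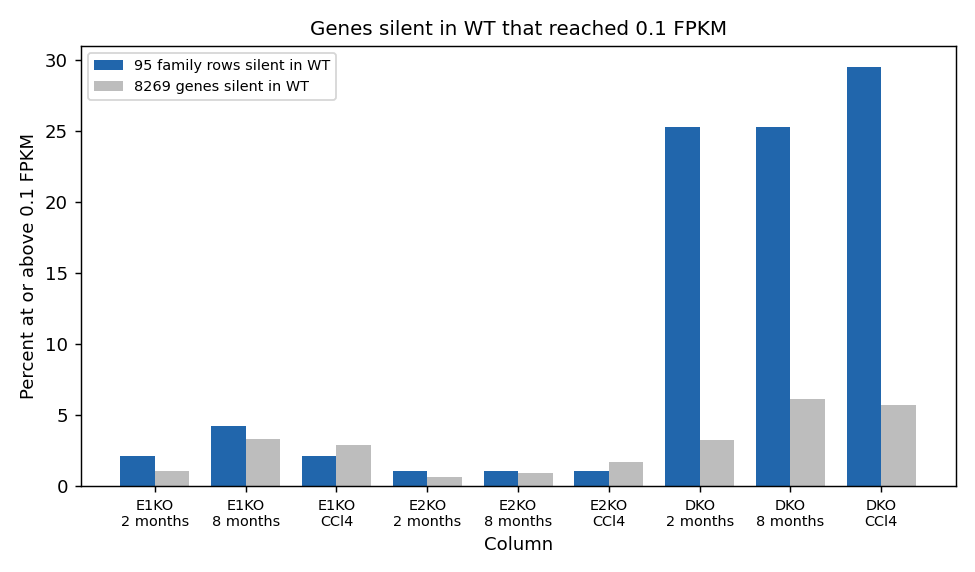
Percent of genes silent in WT that were at or above 0.1 FPKM in each E1KO, E2KO and DKO column, for the 95 family rows (blue) and for all 8269 silent genes in the table (grey). The DKO bars of the family rows stand at 25.3%, 25.3% and 29.5%, above the grey bars beside them.

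For 24 of the 95 silent rows, all 3 DKO columns stood above all 9 others, where 2.35% of silent genes did so. For no silent row did the 3 E1KO columns stand above the other 9 (0.0726% of silent genes). Leaving out the E1KO column at 8 months made the first count 25, by adding Tbx15.

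**Figure D2:**
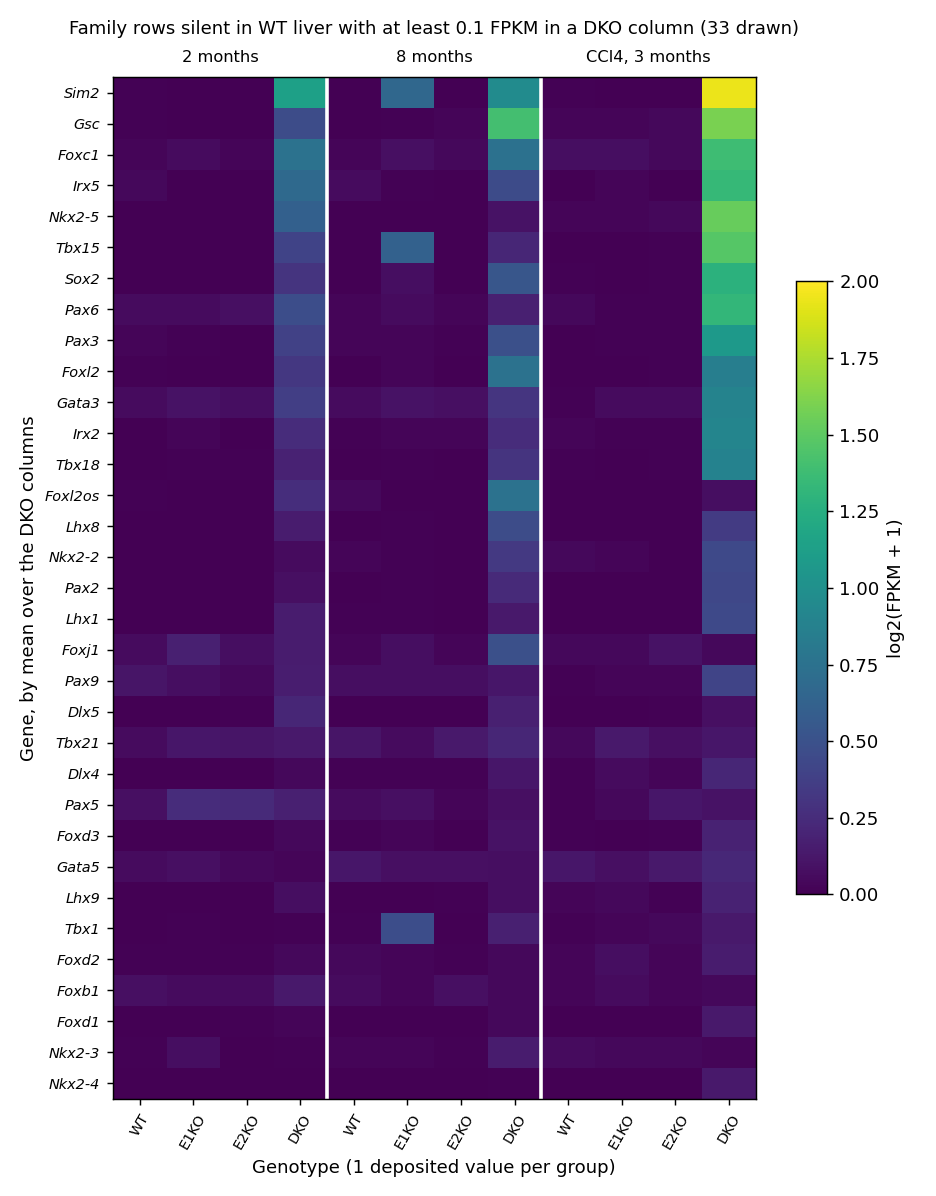
log2(FPKM + 1) of 33 family rows silent in WT that reached 0.1 FPKM in a DKO column, by condition and genotype, 1 deposited value per cell of the map. The DKO column of each condition is brighter than the columns beside it for most rows, while the E1KO column at 8 months shows Sim2, Tbx15 and Tbx1.

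DKO was tested against WT over all 20115 genes above 0 in some column, in a limma model on log2(FPKM + 1) with additive genotype and condition terms, whose error term is what the 12 columns leave over after additivity. Adjusted p here and below is from limma with Benjamini-Hochberg adjustment over these genes. Of 134 members tested, 7 rose, where 1.61% of all genes did, and 1 fell (0.467% of genes). The median member differed by 0.033 on the log2 scale, the median gene by 0. All 7 that rose were silent in WT (1.35% of the silent genes tested rose), among them Foxc1, Dlx5, Foxl2, Lhx8, Gsc and Sim2. The member that fell was Foxa1. By the cell type in which a factor is best known, the calls were 1 lower of 18 hepatocyte and general liver factors (Foxa1), 1 higher of 6 endothelial factors (Foxc1), and 0 of 11 stellate and mesenchymal, 0 of 4 cholangiocyte and epithelial, 0 of 7 blood cell and 0 of 6 muscle factors. The other members that rose are in none of these lists. Foxc1 was at most 0.05 FPKM in WT, and 0 of 10 endothelial markers were called. The cells that gave its DKO values were not tested. At an unadjusted p under 0.05 there were 47 members, where 18% of genes passed. Against the average of WT, E1KO and E2KO, which brings in more columns, 23 members rose (3.48% of genes) and 1 fell (0.994%). The calls were sensitive to the columns used: 5 members rose without the 2-month columns (0.323% of genes), 0 without the 8-month columns (0.116%) and 5 without the CCl4 columns (0.182%). Without the E1KO column at 8 months, 4 members rose (1.13% of genes) and 1 fell (0.27%). With a pseudocount of 0.1 in place of 1, 20 members rose (2.5% of genes) and 2 fell (0.616%).

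Among forkhead genes, 8 of 24 silent members reached 0.1 FPKM in a DKO column, where 9.71% of all silent genes did. Foxc1, which acts in mesoderm, vessels and the eye, stood at 0.02, 0.04 and 0.02 FPKM in WT, E1KO and E2KO at 2 months and 0.69 in DKO, at 0.02, 0.06, 0.03 and 0.68 at 8 months, and at 0.05, 0.05, 0.03 and 1.60 with CCl4. All 3 DKO values lay above all the others, of which the highest was 0.06, and Foxc1 rose by 0.92 (SE 0.13, adjusted p 0.0224).

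Foxl2, a factor of ovarian granulosa cells and the pituitary, was at most 0.02 FPKM outside DKO and 0.25, 0.69 and 0.81 in the DKO columns at 2 months, at 8 months and after CCl4, the order kept below, and it rose by 0.64 (SE 0.10, adjusted p 0.0308). The opposite-strand row Foxl2os stood at 0.20, 0.69 and 0.05 FPKM in DKO and at most 0.03 elsewhere. The labels do not say whether the counting used strand, so reads of this pair may not be told apart. Foxj1, which drives motile cilia, went another way, at 0.11, 0.40 and 0.03 FPKM in DKO against 0.02 to 0.13 elsewhere, so that only the DKO column at 8 months stood clear. Foxb1, Foxd1, Foxd2 and Foxd3 peaked in DKO at 0.10 to 0.14 FPKM.

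Gsc (goosecoid), the homeobox gene of the gastrula organizer, was at most 0.03 FPKM outside DKO and 0.38, 1.64 and 2.02 in DKO, and it rose by 1.14 (SE 0.21, adjusted p 0.0473). Sim2, a bHLH-PAS factor of the midline and of muscle, gave the highest value among the silent members, with 1.20, 0.95 and 2.84 FPKM in DKO. It was at most 0.01 elsewhere except 0.59 in E1KO at 8 months, and it rose by 1.34 (SE 0.26, adjusted p 0.0489). Both genes were separated from WT and E2KO in every condition.

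The LIM homeobox gene Lhx8, which acts in the basal forebrain and in oocytes, was listed at 0 or 0.01 FPKM outside DKO and at 0.11, 0.38 and 0.27 in DKO. It rose by 0.32 (SE 0.057, adjusted p 0.0411). Lhx1, which acts in the kidney and the gastrula, was at 0.11, 0.10 and 0.36 FPKM in DKO and at most 0.01 elsewhere, and Lhx9, a gonad factor, at 0.05, 0.05 and 0.14 against at most 0.03. Dlx5, a factor of branchial arch and bone, differed from most other silent members in being lowest in DKO with CCl4: it stood at 0.16, 0.13 and 0.06 FPKM in DKO and at most 0.01 elsewhere, and rose by 0.16 (SE 0.025, adjusted p 0.0305). Dlx4 was at most 0.04 outside DKO and 0.03, 0.09 and 0.16 in DKO.

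The remaining silent factors that reached 1 FPKM did so in DKO with CCl4 and did not pass the test against WT. Irx5, an Iroquois factor of heart and retina, was at 0.61, 0.37 and 1.53 FPKM in DKO and at most 0.04 elsewhere (difference 0.79, adjusted p 0.0605). Pax3, the factor of muscle precursors and neural crest, was at 0.31, 0.40 and 1.12 against at most 0.02 (0.63, adjusted p 0.0633). Sox2, a pluripotency and neural factor, was at 0.23, 0.45 and 1.44 against at most 0.05 (0.70, adjusted p 0.107). For all 3 genes the DKO columns lay above the other 9.

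Nkx2-5, a factor of the heart, was at 0.53, 0.07 and 1.90 FPKM in DKO and at most 0.03 elsewhere (adjusted p 0.185). Pax6, a factor of eye and pancreas, was at 0.39, 0.13 and 1.5 in DKO and at most 0.06 elsewhere (adjusted p 0.196). Both were lowest in the DKO column at 8 months, although that column still lay above the non-DKO ones. Tbx15, a T-box factor of limb, skin and muscle, was at 0.32, 0.16 and 1.78 in DKO, at 0.54 in E1KO at 8 months, and at most 0.01 elsewhere (adjusted p 0.282). Just under 1 FPKM were Irx2 at 0.88, Gata3 at 0.86 and Tbx18 at 0.85 in DKO with CCl4, and just above it was Pax3.

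**Figure D3:**
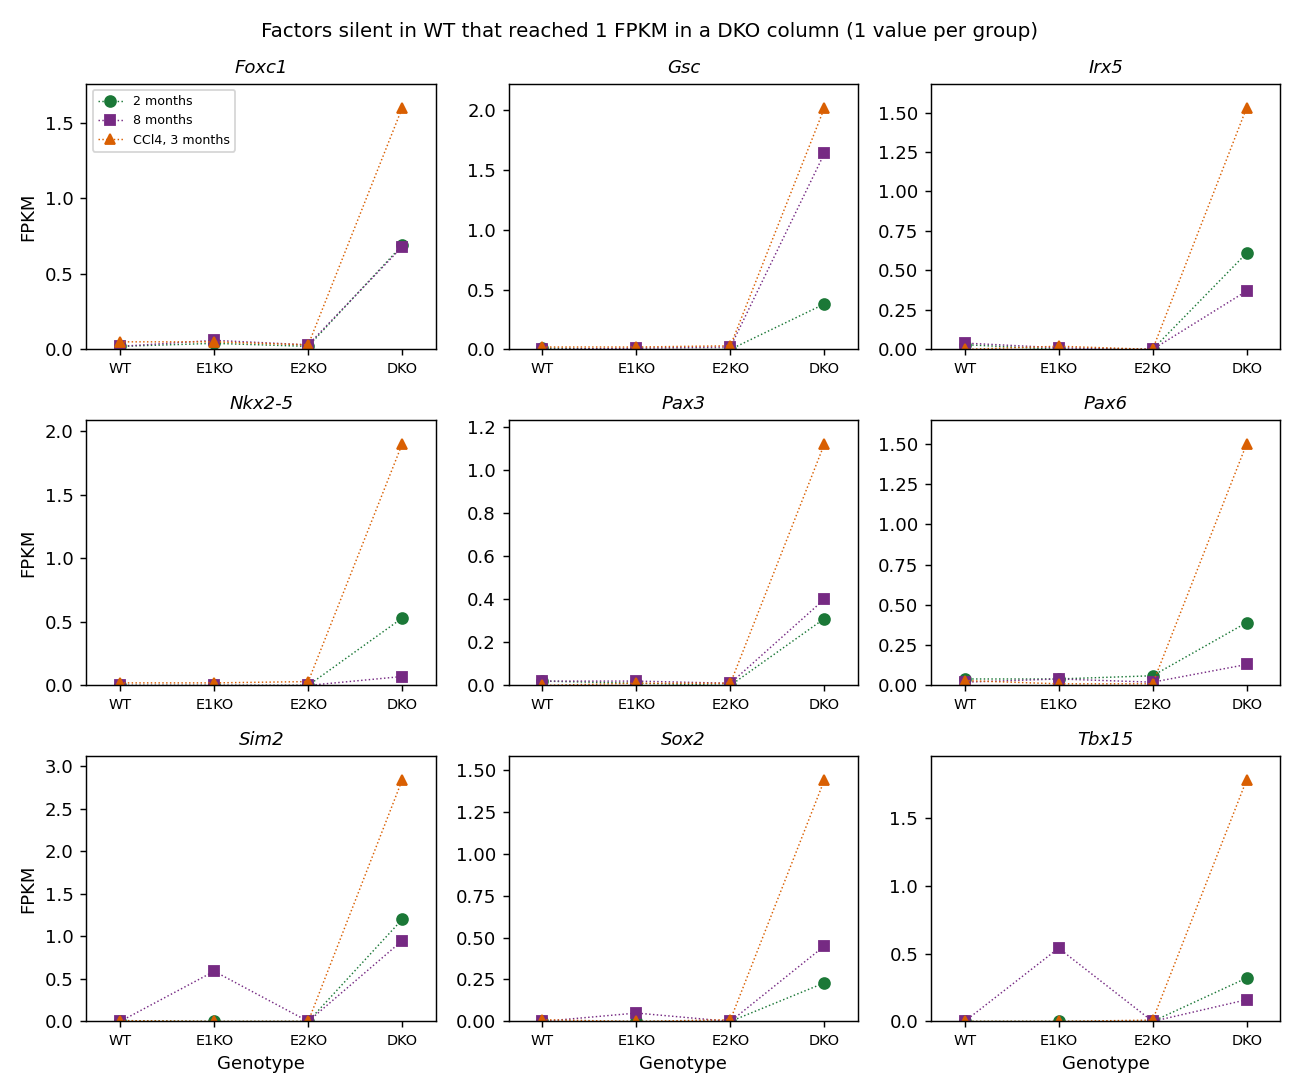
FPKM by genotype for 9 factors silent in WT that reached 1 FPKM in a DKO column, with a point for each condition joined by dotted lines for the eye. The CCl4 DKO point is the highest in every panel, and the E1KO point at 8 months is raised for Sim2 (0.59) and Tbx15 (0.54).

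In the E1KO column at 8 months, 4 silent members reached 0.1 FPKM, among them Sim2, Tbx15, and Tbx1 at 0.39. None of these was above 0.02 FPKM in the other E1KO columns. The 10 skeletal muscle markers summed to 362.5 FPKM in that column and to 1.43 to 1.92 in the DKO columns, where Sim2 and Tbx15 were also above 0.1, and to 1.25 to 1.72 in WT. The part of muscle RNA in the E1KO values was not tested.

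Some neighbouring genes of a family had unlike levels in DKO, and others had levels near each other. By the order of protein-coding genes in RefSeq on GRCm38.p6, Irx1, Irx2 and Irx4 lie together, as do Irx3, Irx5 and Irx6. Irx2 stood at 0.19, 0.19 and 0.88 FPKM in DKO and Irx5 at the values above, while Irx4 and Irx6 were listed at 0 in all 12 columns. Irx3 was near Irx5 in DKO, at 0.68, 0.31 and 1.21 FPKM, but unlike Irx5 it also stood at 0.10 to 0.67 elsewhere. Irx1 stood at 0.48, 0.26 and 0.96 FPKM in DKO, near Irx2 with CCl4. Dlx5 lies beside Dlx6, and Foxc1 in a row with Foxf2 and Foxq1. Of these, Foxq1 was on in WT and Foxf2 and Dlx6 stayed under 0.1 FPKM everywhere.

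By family, 5 of 8 silent Pax genes, 4 of 9 silent Tbx genes, 3 of 5 silent Lhx genes and 2 of 4 silent Irx genes reached 0.1 FPKM in a DKO column, where 9.71% of all silent genes did. Among Sox genes, 1 of 10 silent members, Sox2, did so. The counts were 4 of 10 for Nkx, 2 of 6 for Dlx and 2 of 3 for Gata. Of the genes counted here, Pax5, Tbx1, Tbx15 and Tbx21 also reached 0.1 FPKM in an E1KO column. Pax5, Tbx21 and Gata5 did so in an E2KO column. At 2 months Pax5 was at 0.13 FPKM in DKO, under 0.19 in E1KO and 0.18 in E2KO. Among the Gata genes, Gata3, which directs T cells and also acts in breast and kidney, stood at 0.29, 0.24 and 0.86 FPKM in DKO and at 0.01 to 0.07 elsewhere. The 10 listed lymphocyte markers summed to 5.77, 9.48 and 7.09 FPKM in the DKO columns and 2.67 to 6.32 in the others. All 10 were above WT in DKO in the additive fit, with Nkg7 called (0.90, limma adjusted p 0.0369). The part of lymphocytes in the Gata3 values was not tested.

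Among the 18 members of low level in WT, the 3 DKO columns stood above the other 9 for Twist1 and Sox17 (3.99% of low genes). The E2KO columns stood below the other 9 for Sox7 and Sox17, as they did for 0.283% of low genes. These gaps were narrow, with 0.46 against 0.48 FPKM for Sox7 and 0.36 against 0.37 for Sox17, and the DKO columns of Sox17 cleared the others by 0.56 against 0.54. Twist1, a bHLH factor of mesenchyme, stood at 1.38, 1.52 and 2.34 FPKM in DKO and at 0.16 to 1.24 elsewhere, with E1KO at 2 months the closest (difference from WT 0.94, adjusted p 0.0599). Sox4, a factor of progenitors and of bile duct formation, stood at 0.27, 0.42 and 1.22 FPKM in DKO against 0.09, 0.09 and 0.35 in WT (0.44, adjusted p 0.0562). Set against the average of the other 3 genotypes, Twist1, Sox4, Sox17, Gata2 and Tbx20 rose in DKO, by 0.23 to 0.87 with adjusted p 0.0277 to 0.0485, where 9.03% of low genes rose.

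Irx1, an Iroquois factor, had a DKO difference that varied with the condition. At 2 months it stood at 0.13, 0.16 and 0.22 FPKM in WT, E1KO and E2KO and at 0.48 in DKO. At 8 months the 3 were at 0.74, 0.74 and 0.95 and DKO at 0.26, and with CCl4 they were at 0.01, 0.01 and 0 and DKO at 0.96. In a limma model with DKO-by-condition terms, the DKO difference at 8 months was 0.86 below that at 2 months (adjusted p 0.00987), a call made for 0.283% of genes, and with CCl4 it was 0.62 above (adjusted p 0.0356, 1.22% of genes). Sox7, an endothelial factor, stood at 1.06 FPKM in DKO at 2 months and at 0.34 to 0.69 in all other columns, and its DKO difference at 8 months was 0.48 below that at 2 months (adjusted p 0.0253). This model takes its spread from the WT, E1KO and E2KO columns, which lie near 0 for silent members, so it was not used for them.

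Of the 30 members on in WT, the most abundant were Foxa3, with a WT mean of 34.6 FPKM, Foxa2 at 16.5, Foxq1 at 9.69, Foxa1 at 7.45 and Foxo1 at 6.40. Foxa1 stood at 6.88, 4.89, 6.78 and 4.10 FPKM in WT, E1KO, E2KO and DKO at 2 months, at 8.20, 5.0, 8.13 and 4.67 at 8 months, and at 7.28, 4.18, 6.87 and 3.13 with CCl4. All 6 Ezh1-null columns lay at or under 5.0 FPKM and all 6 others at or above 6.78. Foxa1 fell in DKO against WT by 0.78 (SE 0.089, adjusted p 0.0157). The call was lost when the 2-month, 8-month or CCl4 columns were left out (limma adjusted p 0.111, 0.159 and 0.133, with differences of -0.85, -0.82 and -0.66) and with the WT and DKO columns only (0.273). In those settings, in that order, 1, 0, 1 and 0 genes of the whole table were called lower, so the loss is not particular to Foxa1. In E1KO it differed by -0.57 from WT (unadjusted p 0.000244, adjusted p 0.477).

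Foxa2 stood at 13.33, 9.85, 13.73 and 8.20 FPKM in WT, E1KO, E2KO and DKO at 2 months, at 19.36, 10.01, 11.66 and 11.95 at 8 months, and at 16.90, 8.54, 12.05 and 9.49 with CCl4. The E1KO and DKO columns were under WT in every condition, and E2KO was under it at 8 months and with CCl4. The DKO difference was -0.69 (SE 0.14, adjusted p 0.0593). Foxa1 and Foxa2 were the 2 on members at least 0.5 lower than WT in DKO in all 3 conditions, as were 0.786% of the 11071 genes on in WT, and no on member was that much higher throughout. Foxa3 stood at 31.40, 23.11 and 32.71 FPKM in DKO against 40.28, 26.60 and 36.87 in WT, while E2KO ranged from 29.72 to 44.81.

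A fit with 1 term for Ezh1 loss and 1 for Ezh2 loss over the 12 columns was added after these values were seen. In it Foxa1 was lower by 0.66 with Ezh1 loss (SE 0.066, limma adjusted p 0.0222), a call made for 6 of 20115 genes (0.0298%). Foxa2 differed by -0.53 (adjusted p 0.114) and Foxa3 by -0.29 (adjusted p 0.334). For Ezh2 loss the Foxa1 term was -0.12 (adjusted p 0.925). Without the E1KO column at 8 months the Ezh1 term of Foxa1 was -0.65, with an adjusted p of 0.0664.

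**Figure D4:**
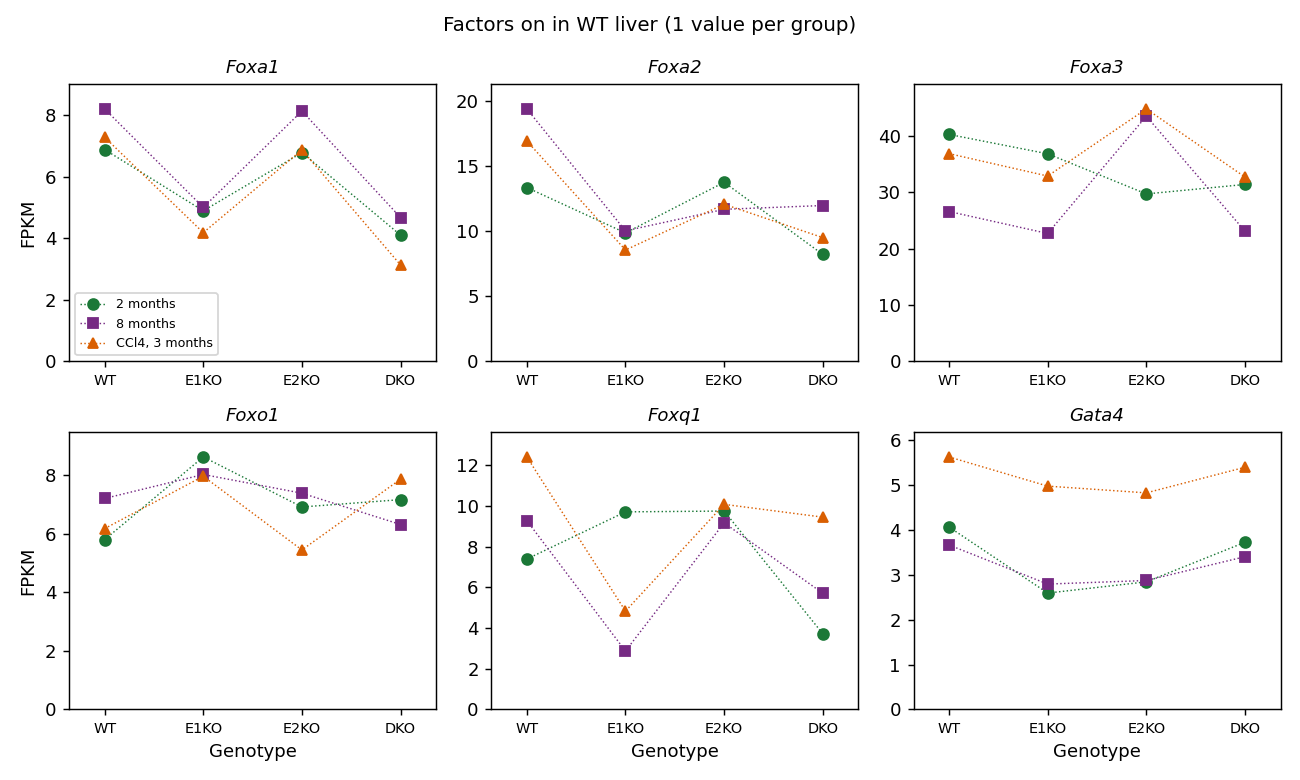
FPKM by genotype for 6 factors on in WT liver, with a point for each condition and the vertical axis from 0. Foxa1 lies between 3.13 and 5.0 in the E1KO and DKO columns and between 6.78 and 8.20 in WT and E2KO, while the panels of Foxa3, Foxo1, Foxq1 and Gata4 do not separate the genotypes in this way.

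The other abundant factors did not pass the DKO test. Foxq1, a forkhead gene, stood at 3.72, 5.71 and 9.45 FPKM in DKO against 7.39, 9.28 and 12.41 in WT, and at 9.71, 2.87 and 4.83 in E1KO, so that E1KO was above WT at 2 months and below it in the other conditions. Foxo1, which links insulin signalling to glucose production, stood above the other 9 columns in E1KO, at 8.63, 8.03 and 7.97 FPKM against 5.45 to 7.87 (0.0361% of on genes did so). Lhx2, a LIM homeobox factor of hepatic stellate cells, stood at 1.61, 2.20 and 4.03 FPKM in DKO and at 0.82 to 1.43 elsewhere, the on member with all DKO columns above the other 9 (0.804% of on genes). Its difference from WT was 0.72 (adjusted p 0.0611), and from the average of the other 3 genotypes 0.72 (adjusted p 0.0244).

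Within a condition and with no test, 1 member was at least 1 higher on the log2(FPKM + 1) scale in DKO than WT at 2 months (1.21% of genes) and 0 lower (0.875%), and at 8 months 2 were higher (1.78%) and 0 lower (0.701%). With CCl4 13 were higher (1.87%) and 2 lower (1.44%). Those higher with CCl4 were the 10 silent factors above, Lhx2, Twist1 and Lhx6, a LIM homeobox factor at 3.62 FPKM in DKO and 0.71 in WT. The lower ones were Foxa1 and Foxm1.

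The combined loss was compared with each single loss. In E1KO against WT, 0 of 134 members were called by limma, where 2 of all genes were (0.00994%), and 6 members had an unadjusted p under 0.05 (5.18% of genes). In E2KO against WT, no member and no gene was called, and 4 members had an unadjusted p under 0.05 (1.66% of genes). The departure of DKO from the sum of the single differences called 0 members, where it called 6 genes (0.0298%), and 29 members had an unadjusted p under 0.05 (7.18% of genes).

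Levels of markers of other cell types were set beside these values. The 15 stellate cell and fibroblast markers summed to 164.3, 243.0 and 389.8 FPKM in the DKO columns and to 102.2, 121.7 and 323.8 in WT, and 13 of 15 were above WT in the additive fit, with 0 called. Dcn was the largest part of that sum, at 83.3, 162.1 and 176.2 FPKM in DKO and 57.6, 79.8 and 96.0 in WT. Acta2 and Tagln were below WT in the fit. With CCl4 they stood at 6.98 and 19.08 FPKM in DKO against 37.56 and 63.51 in WT. The 10 cholangiocyte markers summed to 102.5, 319.5 and 701.6 FPKM in DKO against 64.9, 50.9 and 408.5 in WT, with Cldn7 and Krt23 called. Most of that sum was Spp1, which was not called, and the other 9 markers summed to 18.1, 29.5 and 17.6 FPKM in DKO and 8.21, 9.56 and 10.9 in WT. The 10 endothelial markers summed to 63.9, 61.0 and 125.7 against 48.2, 83.7 and 108.7, so their DKO value was lower than WT at 8 months, and 0 were called. No listed marker of these types was at 0 in every column. What part these cells have in the levels of Lhx2, Twist1, Sox4 and Sox17 was not tested.

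CCl4 was compared with 2 months in the additive fit, which also spans 1 month of age. It was the larger of the condition differences, with 19 of 134 members higher (25.3% of genes) and 11 lower (15% of genes). Of the 30 on members, 7 rose (31.1% of on genes) and 7 fell (23.2%). The classes were set with the CCl4 WT column among the WT columns, for members and for all genes. Members such as Foxm1 and Foxs1 were on only through that column, so a rise with CCl4 was built into their class. The CCl4 counts by class are therefore descriptions. Foxm1, which drives the genes of cell division, stood at 0.06 to 0.28 FPKM in the 8 untreated columns and at 6.09, 3.55, 3.90 and 1.48 in WT, E1KO, E2KO and DKO with CCl4. It rose by 1.99 (SE 0.26, adjusted p 0.000816). The DKO value with CCl4 was the lowest of the 4, and the summed level of 12 cell cycle genes had the same order, with 327.3 FPKM in WT, 212.7 in E2KO, 195.4 in E1KO and 91.8 in DKO.

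Sox9, a factor of bile ducts and progenitors, stood at 0.44 to 1.64 FPKM in untreated liver and 2.14 to 2.62 with CCl4, and rose by 0.97 (SE 0.15, adjusted p 0.00153). Sox18, an endothelial factor, stood at 5.11, 5.54 and 4.67 FPKM in WT, E1KO and E2KO with CCl4, at 2.89 in DKO, and at 1.32 to 3.42 untreated. It rose by 0.95 (adjusted p 0.00414). Gata4 rose by 0.54 (adjusted p 0.00091) and Gata6 by 0.54 (adjusted p 0.00657). Foxs1, a forkhead gene of pericytes, stood at 1.41, 1.79 and 1.08 FPKM in WT, E1KO and E2KO with CCl4 and at 0.37 in DKO, against 0.10 to 0.35 untreated, and rose by 0.86 (adjusted p 0.00909).

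Tbx3 fell by 1.38 with CCl4 (SE 0.32, adjusted p 0.0108). It stood at 1.11, 0.35, 0.91 and 2.90 FPKM in WT, E1KO, E2KO and DKO with CCl4, and at 2.95 to 8.34 in untreated liver, so the DKO value nearly met the untreated range. Foxo4, Foxp1, Foxk1, Foxj2, Foxn3 and Sox5 also fell, by 0.29 to 0.65. For Foxo4 the CCl4 values were 3.5, 3.61 and 3.5 FPKM in WT, E1KO and E2KO and 6.05 in DKO, against 6.52 to 10.47 untreated. Among the 18 low members, 5 rose with CCl4 (Sox4, Tbx20, Foxf1a, Gata2 and Twist2, where 38.1% of low genes rose) and 2 fell (Tbx6 and Lhx5, where 11.9% fell). Among silent members, chosen to be under 0.1 FPKM in the CCl4 WT column too, 7 rose (7.3% of silent genes tested) and 2 fell (1.19%), with differences of at most 0.12. Other cell types' markers also differed with CCl4. Of the stellate cell and fibroblast markers 12 of 15 rose, with sums of 323.8 to 412.8 FPKM with CCl4 and 102.2 to 243.0 without. Of the endothelial markers 9 of 10 rose (108.7 to 125.7 against 42.3 to 83.7 FPKM), and of the macrophage markers 8 of 10 (152.1 to 305.1 against 41.0 to 112.7). Of the hepatocyte markers 5 of 9 fell. Their part in the factors' values was not tested.

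**Figure D5:**
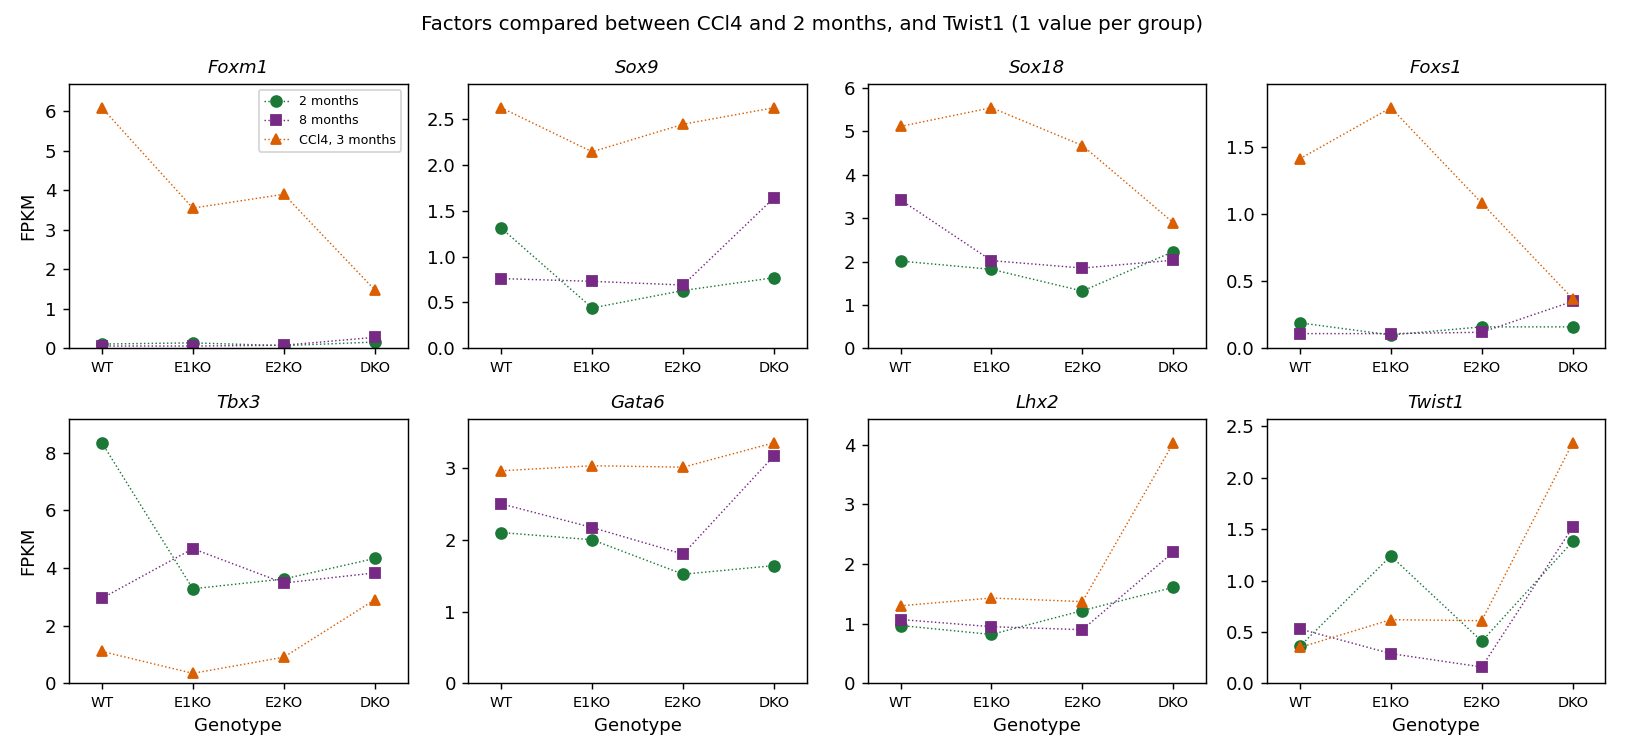
FPKM by genotype for 7 factors called between CCl4 and 2 months and for Twist1, with a point for each condition and the vertical axis from 0. The CCl4 points of Foxm1 run from 6.09 in WT to 1.48 in DKO, and those of Foxs1 and Sox18 are also lowest in DKO, while those of Lhx2, Twist1 and Tbx3 are highest in DKO.

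At 8 months against 2 months, 1 member was called, Foxn3, a forkhead gene, which was lower by 0.66 (SE 0.11, adjusted p 0.034; 0.676% of genes fell). It stood at 1.93 to 2.27 FPKM at 2 months and 0.57, 1.06, 1.46 and 0.87 at 8 months in WT, E1KO, E2KO and DKO. Without the E1KO column at 8 months no member was called.

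Developmental factors outside these families and liver factors outside them were counted in the same fit. Of 101 listed developmental factors in the table, 95 were tested, and 7 rose in DKO against WT and 0 fell, among them Hand2, a heart and limb factor, at 3.31, 5.64 and 6.36 FPKM in DKO and 1.97 to 3.09 elsewhere (0.91, adjusted p 0.0352). Of the 81 that were silent in WT, 29 reached 0.1 FPKM and 5 reached 1 FPKM in a DKO column, among them Pitx1, Zic1, Zic2 and Osr2, against 9.71% and 1.22% of all silent genes. In some E1KO column 5 reached 0.1 FPKM (6.26% of silent genes), and in some E2KO column 3 (2.99%). Of 33 liver transcription factors outside the families, such as Hnf4a and Cebpa, 0 were called in DKO against WT (1.61% of genes rose and 0.467% fell), while with CCl4 14 fell (15% of genes) and 1 rose (25.3%).

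The genes whose pattern over the 12 columns was most like that of a called silent member, by Pearson's r on log2(FPKM + 1), were often other genes silent in these WT columns. Ankrd34b had the highest r with Foxc1 (0.9988), but it stood at 0.01, 0.01 and 0.02 FPKM in DKO and 0 elsewhere, near the rounding of the values. For Lhx8 it was Hoxb13 (r 0.996), and for Sim2 it was Tcfap2a (0.975). For Gsc and Foxl2 the nearest were the sulfotransferase genes Sult2a4 (0.998) and Sult2a2 (0.999). Foxl2 and Gsc were also among each other's nearest (0.997). The 12 columns share their DKO and non-DKO groups, so any gene near 0 outside DKO gives a high r.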

How the data were processed

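RNA-seq of mouse liver gave 1 table of FPKM values, deposited by the authors to 2 decimals with 1 column for each of 12 groups. Per the submitters' processing notes, CASAVA, TopHat, Cufflinks, BWA, SICER and HOMER were used on mm9, and the step each served, with its version, is not stated there. How replicates were combined is not stated either, and read counts cannot be recovered, so depth is unknown. The 9 ChIP-seq samples are not analysed here.

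Groups follow the labels. log2(FPKM + 1) was modelled in limma 3.58.1 (R 4.3.3), with additive genotype and condition terms, eBayes with a trend, two-sided Benjamini-Hochberg adjustment over 20115 genes above 0 in some column, a threshold of 0.05 and 6 residual degrees of freedom. Since each group has 1 value, the p-values of these contrasts take their error from departures from additivity, not from spread between animals. The DKO-by-condition fit had 4. The scripts were tested on simulated data. Members, classes and lists were chosen with earlier results of these data known. Named are Ezh1 and Ezh2, called members, silent members reaching 1 FPKM in DKO, the 12 most abundant in WT by mean, members differing by 0.5 in every condition, family neighbours and the nearest genes. Other members named were chosen after their values were seen. A few members and listed genes are counted but not reported by name here.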

Additional observations from a re-analysis of the deposited data

Results flagged for a closer look

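Irx1 stood out because its DKO difference varied with the condition in the limma fit with DKO-by-condition terms: it was -0.86 at 8 months relative to 2 months (adjusted p 0.00987) and 0.62 with CCl4 relative to 2 months (adjusted p 0.0356). In the 3 other genotypes Irx1 was 0.74 to 0.95 FPKM at 8 months but 0.01 or less with CCl4, so the sign of the difference follows the level in those columns as well as the DKO values of 0.48, 0.26 and 0.96. Sox7 was picked out by the same comparison, with a DKO difference of -0.48 at 8 months relative to 2 months (adjusted p 0.0253), set by the single value of 1.06 FPKM in DKO at 2 months. Each of these rests on 1 value per group.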

How the results depend on the processing

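The limits are 1 value per group, an unknown depth and values to 2 decimals. Condition acts as a block in the additive fit. No paired analysis by replicate was possible because each group has 1 column. For DKO against WT, the 8 members called became 22 with a pseudocount of 0.1, 24 against the average of WT, E1KO and E2KO, and 5 without the E1KO column at 8 months. With eBayes without a trend there were 5 (1.15% of genes rose and 0.656% fell). With the WT and DKO columns only, 0 members and 0 of 19094 genes were called, so that count is not particular to the members. Leaving out the columns of 1 condition gave 0 to 5. Foxl2, Gsc and Lhx8 lost their calls without the E1KO column at 8 months (limma adjusted p 0.0507, 0.0701 and 0.0599). Foxa1 lost its call without any 1 condition, where at most 1 gene of the whole table was called lower. For CCl4, the 30 called of 134 members tested became 17 of 35 with a filter of 1 FPKM in at least 2 columns, where fewer genes are tested. Of all genes, 8097 of 20115 were called in the main fit and 6594 of 11394 with the filter. For 8 months, the 1 called became 2 with the filter, 2 with a pseudocount of 0.1, 2 with columns scaled to their medians, 2 without the DKO columns (both higher, with the lower call of Foxn3 lost) and 0 without the E1KO column at 8 months. Of all genes, 409 were called in the main 8-month fit and 489, 406, 399, 93 and 146 in these settings, in that order. The 10 silent members reaching 1 FPKM in DKO became 16 at a level of 0.5, 2 at a level of 2, and 3 without the CCl4 DKO column. Members past 1 on the log2 scale went from 1, 2 and 15 at 2 months, 8 months and with CCl4 to 23, 29 and 37 with a pseudocount of 0.1 and 5, 6 and 25 with 0.5. For the silent members reaching a level and the members past 1 on the log2 scale, no share over all genes is given under the changed settings. The counts in this section show how far the setting matters and are not results about the members. The cause of these shifts was not tested. No member followed singly changed sign under these settings, and single members lost a call in 34 comparisons of a member with a setting and gained it in 10.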

Other observations

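Some members of low level were present in some columns and close to 0 in others. Lhx5, a LIM homeobox gene of the developing forebrain, stood at 0.32 to 0.48 FPKM in all 4 genotypes at 2 months and in WT and E1KO at 8 months, and at 0 to 0.01 in E2KO and DKO at 8 months and in all 4 CCl4 columns. Tbx6, a factor of paraxial mesoderm, stood at 0.14 to 0.36 FPKM in the 8 untreated columns and at 0.02 to 0.04 with CCl4. Nkx2-6 was highest in the older mice and stood at 0.62 to 0.73 FPKM at 8 months, at 0.23 to 0.38 at 2 months, and at 0.48, 0.35, 0.10 and 0.28 in WT, E1KO, E2KO and DKO with CCl4. Irx3, next to Irx5 on the chromosome, stood at 0.68 and 1.21 FPKM in DKO at 2 months and with CCl4 against 0.10 to 0.22 in the other genotypes, but at 0.31 in DKO at 8 months against 0.35 to 0.67.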
